A study of Mus musculus with 4 samples.

Results

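The genes described here are 9 members of the S100 family, small calcium-binding proteins: S100a1, S100a4, S100a6, S100a8, S100a9, S100a10, S100a11, S100a13 and S100a16. They were the entries of the deposited count table with these gene names, 9 of 54532 genes, and all 9 were found. RNA sequencing was performed on 4 cultures of wild-type (WT) mouse peritoneal macrophages, 1 library for each combination of medium and inhibitor. Cells were kept in normal medium (0% 4T1) or with 30% 4T1-CM, which is medium conditioned by 4T1 cells, a mammary carcinoma line of the mouse, and received DMSO, the vehicle, or 10 µM CH223191, an antagonist of the aryl hydrocarbon receptor AHR. Each of the 4 groups is thus named by its medium and by DMSO or CH223191. The study's methods describe peritoneal macrophages drawn from BALB/c mice by injection of thioglycollate broth, so these are elicited cells, and neither the number of mice behind a library nor the length of the treatment is given for these 4 libraries. The comparisons ask what 4T1-CM does to S100 transcripts and whether the AHR antagonist changes that.

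S100 proteins pair into dimers and bind calcium through EF-hands, helix-loop-helix folds whose loop holds the ion. Calcium exposes a surface with which most of them grip partners inside the cell, among them the annexins, proteins that bind membranes, and the cytoskeleton. S100a8 and S100a9 form calprotectin, an antimicrobial complex that neutrophils and inflammatory monocytes make in large amounts. When released, several S100 proteins act as alarm signals through Tlr4 and Ager, the receptor RAGE. S100a10 is the exception of the family, since its loops no longer bind calcium and it is held in a complex with Anxa2 instead.

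The loop of the second EF-hand is the feature that the family shares, and its coding bases are printed for the 6 members with the most reads. The letters were read from the GENCODE M21 transcripts of GRCm38, each run covers 36 bases or 12 codons on the coding strand, and capitals mark codons 1, 3, 5 and 12, whose residues hold the calcium ion in a usual loop.

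S100a1 (chr3:90511284-90511319, - strand): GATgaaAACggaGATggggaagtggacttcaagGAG
S100a6 (chr3:90614233-90614268, + strand): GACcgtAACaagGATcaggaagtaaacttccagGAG
S100a8 (chr3:90669872-90669907, + strand): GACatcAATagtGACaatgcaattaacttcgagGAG
S100a11 (chr3:93526037-93526072, + strand): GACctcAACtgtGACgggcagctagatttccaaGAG
S100a13 (chr3:90524389-90524424, + strand): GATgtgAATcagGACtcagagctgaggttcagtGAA
S100a10 (chr3:93564288-93564323, + strand): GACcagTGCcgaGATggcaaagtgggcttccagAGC

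At the 4 marked codons, 8 of the 9 genes encode residues of the usual calcium loop, and S100a10 does not. Over the aligned bases of the coding sequences, gaps left out, identity between pairs of the 9 genes lay between 55.4% and 68.9%. The median was 60.9% over 36 pairs. The members are thus far apart in sequence, and none shared a 50-base stretch with another of the 9.

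All 9 genes lie on chromosome 3 of GRCm38, between positions 90511034 and 93564643, a span of 3.05 Mb. The 7 genes S100a1, S100a13, S100a16, S100a4, S100a6, S100a8 and S100a9 form the first stretch, and S100a11 and S100a10 stand at the far end. Another 66 protein-coding genes of the table start within the span, many of them genes of the skin barrier. Of these, 55 had 0 reads in all 4 libraries, none had more than 55 reads in a library, and 2 passed the filter on low counts. Gm9774, 1 of the 2, had 17 reads with DMSO against 7 with CH223191 in normal medium, and was the only 1 of the 66 to be called, that is, to differ at least 2-fold between a pair of libraries with more than 3 reads in both. Among protein-coding genes, the reads of the span thus came almost entirely from the S100 members.

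The counts summed to between 15535405 and 17557127 reads per library, and 17395 to 18665 genes had a read. Genes were kept when 1 library or more held at least 10 reads, which left 13715. 8 of 8 macrophage markers, such as Adgre1, Csf1r and Lyz2, had reads in every library, and their summed level was 14300 CPM in normal medium with DMSO and 43450 CPM in 4T1-CM with CH223191, the lowest and the highest library. CPM are counts relative to the total of a library, corrected by its TMM factor (0.986 to 1.026). Ly6g and Retnlg of the neutrophil list, Ly6c2 of the monocyte list and Krt19 of the epithelial list had 0 reads in every library. Other genes of these lists had reads, among them Csf3r, Mmp8, Lcn2, Fn1 and Hp, given below. The 5 epithelial markers summed to 0.439 and 0.692 CPM in normal medium (DMSO, then CH223191) and to 0.914 and 1.35 CPM in 4T1-CM, mostly from Cdh1, with 3 and 7, then 16 and 20 reads. The 6 fibroblast markers summed to 63.0 and 30.1 CPM in normal medium and to 149 and 127 CPM in 4T1-CM. Of these, Col1a1, Col1a2, Col3a1 and Dcn were at least 2-fold higher in 4T1-CM than in normal medium, both with DMSO and with CH223191. Over all genes, 9.56% were so with DMSO and 9.4% with CH223191. Pdgfra stayed within 2-fold between the media, slightly lower in 4T1-CM with DMSO (log2 ratio -0.27) and higher with CH223191 (0.48). Lum never exceeded 3 reads. Col1a1 (log2 ratio -1.60) and Col3a1 (-1.85) were at least 2-fold lower with CH223191 than with DMSO in normal medium, against 1.81% of all genes. Col1a2 (-0.815) and Pdgfra (-0.88) were lower there by less than 2-fold. Dcn went the other way (0.36), on 45 reads with CH223191 against 35 with DMSO. The part of other cell types in the S100 values was not tested.

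Of the 9 S100 genes, 7 passed the filter on low counts. S100a9 had 0 reads in each of the 4 libraries, which allows up to 3 reads, or 0.171 to 0.189 CPM. S100a16 had 0 reads in both libraries with DMSO, 1 in normal medium with CH223191 and 6 in 4T1-CM with CH223191. Both are left as counts, without a fold. The rest of the family was near 0 as well: 9 of 11 further family members and copies on a fixed list (S100a2, S100a3, S100a5, S100a7a, S100a14, S100b, S100g, S100z and S100a11-ps) were in the table, and none had more than 3 reads in a library.

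Levels were compared per length, as TPM, a scale that divides out gene length and gives every library the same sum. By the deposited counts, 4 genes supplied most S100 transcripts in these libraries: S100a1, S100a11, S100a6 and S100a10. In normal medium with DMSO their levels were 1478, 820, 637 and 388 TPM. These placed them between the 97.5th and the 99.5th percentile of the genes kept. S100a13 followed with 117 TPM, S100a8 with 28.1 TPM and S100a4 with 4.72 TPM. The place of S100a4 is uncertain, because 51.7% of its exon bases are shared with another gene, as given below. With 1 library per condition the spread between cultures is unknown, so whether neighbours in this order differ beyond it cannot be said.

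The head of this order differed between the libraries of normal medium and those of 4T1-CM, which was not tested. S100a1, best known from heart muscle, where it tunes calcium handling, was first in both libraries of normal medium. With CH223191 in normal medium it was close to S100a11, at 2016 against 1867 TPM. Of the 50-base words of S100a11, 41.1% also occur in pseudogene transcripts, and reads that fit both may be missing from its count. Which of the pair was first in that library is therefore uncertain. S100a11, an annexin partner, was first in both libraries of 4T1-CM, with 1484 TPM (DMSO) and 1443 TPM (CH223191) against 952 and 870 TPM for S100a1. S100a8 and S100a13 exchanged the 5th and 6th places in the same way, with S100a8 ahead in 4T1-CM.

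**Figure D1:**
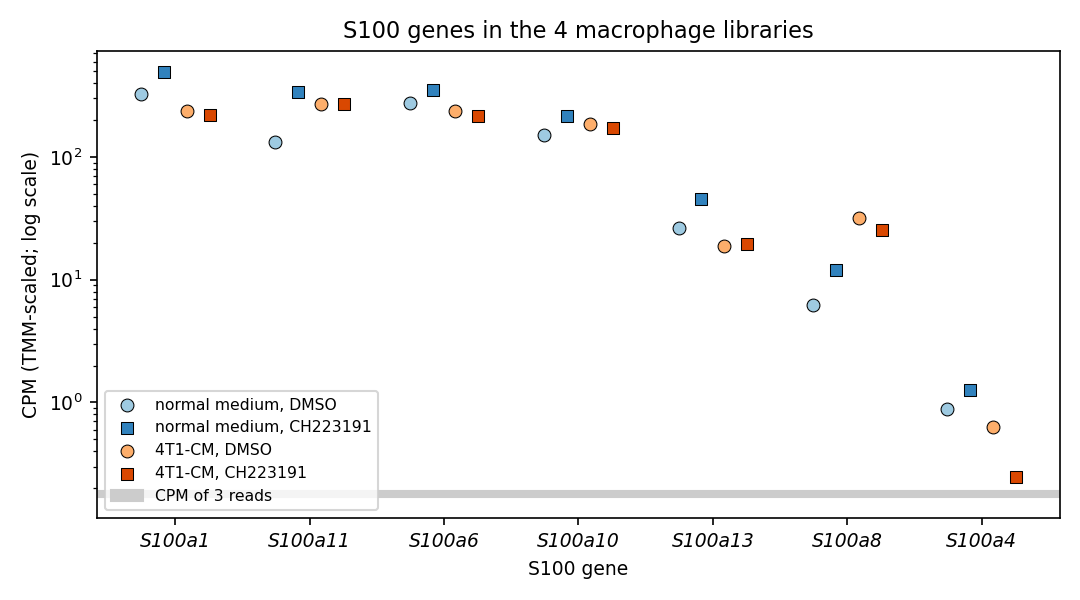
Level of the 7 S100 genes that passed the filter in each of the 4 libraries, as TMM-scaled CPM on a log axis; each point is 1 library, and the grey band marks the CPM of 3 reads (0.171 to 0.189). S100a8 stands higher in both 4T1-CM libraries (32.0 and 25.4 CPM) than in both libraries of normal medium (6.21 and 11.9 CPM).

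S100a8 was the S100 gene with the largest difference between the media under DMSO. With DMSO it had 99 reads in normal medium against 560 in 4T1-CM, and with CH223191 it had 190 against 412. Both 4T1-CM libraries were above both libraries of normal medium. The log2 ratio of 4T1-CM to normal medium was 2.36 with DMSO (95% counting interval 2.05 to 2.69), a 5.13-fold higher level. With CH223191 it was 1.08 (0.83 to 1.34), or 2.12-fold. These intervals are exact Clopper-Pearson intervals of the split of reads between a pair of libraries: they cover counting error only and compare libraries, not conditions. In RNA of a whole culture, a higher level per cell and more cells of an expressing type cannot be told apart.

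S100a9, the partner of S100a8 in calprotectin, lies nearby on the chromosome and was not detected beside the 99 to 560 reads of S100a8. No transcript of another gene shared a 50-base stretch with S100a8 or S100a9 in the annotation, and no exon of another gene overlapped theirs on either strand. The 11 other neutrophil markers on a fixed list summed to 61.4 and 62.7 CPM in normal medium (DMSO, then CH223191) and to 229 and 170 CPM in 4T1-CM, so their sum was higher in 4T1-CM, as S100a8 was. Within normal medium the sum was level where S100a8 stood at 6.21 and 11.9 CPM. Most of the sum in normal medium was Csf3r, the receptor of G-CSF, with 58.3 and 60.3 CPM there and 86.9 and 108 CPM in 4T1-CM. Mmp8, a collagenase, had 35 and 21 reads in normal medium (DMSO, then CH223191) and 2142 and 759 in 4T1-CM. In CPM these were 2.20 and 1.32, then 122 and 46.7, so with DMSO Mmp8 made most of the higher sum in 4T1-CM. Lcn2, an iron-sequestering protein that activated macrophages also make, had 0 reads in both libraries of normal medium and 326 and 232 (18.6 and 14.3 CPM) in 4T1-CM. The granule genes Camp, Ltf, Elane, Mpo and Ngp had at most 8 reads in a library. Cxcr2, a chemokine receptor of neutrophils, had 12 and 9 reads in normal medium and 2 and 0 in 4T1-CM. The 6 monocyte markers summed to 919 and 1097 CPM in normal medium and to 2987 and 3649 CPM in 4T1-CM. Nearly all of this was Fn1, fibronectin, at 914 and 1093, then 2259 and 2981 CPM, and Hp, haptoglobin, at 1.82 and 2.33, then 719 and 660 CPM. Ccr2 was level (32 and 22 reads, then 27 and 26), Vcan had 11 and 8, then 134 and 97 reads, and Plac8 had at most 5. The part of these cells in the difference of S100a8 was not tested.

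The genes whose pattern over the 4 libraries was nearest to that of S100a8 were Wfdc17, C1qb and C1qa. Nearness was the Euclidean distance between the 3 log2 ratios to normal medium with DMSO, over the 8454 protein-coding genes whose count was at least 100 in every library, and was 0.34, 0.39 and 0.45. Wfdc17, a small secreted protein of activated macrophages, had 1075 and 1691 reads in normal medium and 5592 and 4904 in 4T1-CM. C1qb and C1qa, chains of complement C1q, had 164 and 146 reads with DMSO in normal medium, against 808 and 674 in 4T1-CM.

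The 250 bases before the RefSeq start of S100a8 (GRCm38.p6) are printed for this gene and for S100a11, the genes called higher in 4T1-CM with DMSO. Capitals mark the TATAAA of S100a8 and the TGAGTCA of S100a11, a form of the AP-1 motif TGANTCA.

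S100a8 (chr3:90668821-90669070, + strand): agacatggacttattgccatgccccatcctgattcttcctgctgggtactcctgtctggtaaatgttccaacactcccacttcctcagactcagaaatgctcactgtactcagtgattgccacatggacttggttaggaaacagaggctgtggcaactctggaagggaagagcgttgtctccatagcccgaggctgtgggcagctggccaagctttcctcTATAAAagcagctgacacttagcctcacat
S100a11 (chr3:93520246-93520495, + strand): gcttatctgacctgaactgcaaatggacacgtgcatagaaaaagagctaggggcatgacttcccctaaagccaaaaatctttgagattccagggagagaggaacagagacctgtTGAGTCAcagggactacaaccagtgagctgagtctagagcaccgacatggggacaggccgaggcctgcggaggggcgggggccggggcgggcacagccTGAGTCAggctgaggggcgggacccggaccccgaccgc

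Altogether 5 motifs were searched on both strands in the windows of 250 bases before to 50 after each RefSeq start, which 8 of the 9 genes have, S100a16 with a pair of windows. TATAAA was found in S100a4, S100a8 and S100a9, and in 13.6% of 32851 windows of all genes. TGANTCA was found at 2 places in S100a11 and at 1 in S100a16, and in 7.81% of all windows. GCGTG, the core of the site that AHR binds, was found in the window of S100a13 alone among the members, and in 32.4% of all windows. TTGCNNAA, a C/EBP motif, was found in S100a9 (10.8% of all windows). TTCNNNGAA, the STAT motif, was found in none of the 9 windows (8.3% of all windows). A match says that these letters are present, and the windows hold other letters that were not searched.

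S100a11 differed from S100a8 in that 1 library stood apart. With DMSO it had 2128 reads in normal medium against 4759 in 4T1-CM, and with CH223191 it had 5346 against 4361. The library of normal medium with DMSO was the low one, and the other 3 lay between 268 and 336 CPM against 134 CPM. The log2 ratio of 4T1-CM to normal medium was 1.03 with DMSO (0.95 to 1.10) and -0.32 with CH223191 (-0.38 to -0.27). With DMSO the 2.04-fold difference lay at the limit of a call, and it fell below 2-fold (log2 0.98) when libraries were scaled by total counts alone. Of the 50-base words of S100a11, 41.1% also occur in the transcripts of 3 processed pseudogenes, so some of its reads can be assigned to copies or left uncounted. Each of the 3 had at most 300 reads in a library. This does not bound the reads lost, since how reads that fit several genes were counted is not given.

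S100a10, the Anxa2 partner, lies close to S100a11 and differed in the same directions, by less with DMSO. Its reads were 2386 in normal medium against 3268 in 4T1-CM with DMSO, and 3441 against 2824 with CH223191. The log2 ratio of 4T1-CM to normal medium was 0.32 with DMSO (0.24 to 0.40) and -0.32 with CH223191 (-0.39 to -0.24). Again normal medium with DMSO was the lowest library. There were 1.12 reads of S100a10 per read of S100a11 in that library and 0.644 to 0.687 in the other 3.

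S100a1 and S100a13 were lower in 4T1-CM. With DMSO, S100a1 had 5208 reads in normal medium against 4147 in 4T1-CM, and with CH223191 it had 7839 against 3572. S100a13, which takes part in the export of proteins that lack a signal peptide such as FGF1, had 424 against 332 reads with DMSO and 718 against 318 with CH223191. For both genes the 4T1-CM libraries were below those of normal medium, and the highest library was normal medium with CH223191. The log2 ratio of S100a1 was -0.46 with DMSO (-0.52 to -0.41) and -1.17 with CH223191 (-1.22 to -1.11). That of S100a13 was -0.49 (-0.70 to -0.28) and -1.20 (-1.40 to -1.01).

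S100a1 and S100a13 are neighbours transcribed away from each other, S100a1 on the minus strand and S100a13 on the plus strand, with 42 bases between their annotated starts. The run is printed because it is all that separates the pair by the gene coordinates of the count table. RefSeq places the start of S100a1 elsewhere. The letters are from the RefSeq window (GRCm38.p6), and the run holds none of the 5 motifs.

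S100a1 to S100a13 (chr3:90514393-90514434, + strand): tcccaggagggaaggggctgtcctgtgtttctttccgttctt

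The number of S100a1 reads per S100a13 read was 12.3 and 10.9 in normal medium (DMSO, then CH223191) and 12.5 and 11.2 in 4T1-CM. The ratio of the pair thus moved little while each gene differed by more than 2-fold between the media with CH223191. The genes nearest to S100a13 by the distance used for S100a8 were Nhp2 (0.089), Mgst3 (0.092) and Apip (0.093). Mgst3, a microsomal glutathione transferase, had 423 and 744 reads in normal medium and 331 and 334 in 4T1-CM, close to the reads of S100a13 in each library.

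S100a6, or calcyclin, which binds the ubiquitin ligase adaptor Cacybp, differed least of the 7 between the media with DMSO. With DMSO it had 4420 reads in normal medium against 4158 in 4T1-CM, and with CH223191 it had 5615 against 3509. Its log2 ratio of 4T1-CM to normal medium was -0.22 with DMSO (-0.28 to -0.16) and -0.71 with CH223191 (-0.77 to -0.65).

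S100a4, a partner of non-muscle myosin linked to cell motility, had few reads: with DMSO 14 in normal medium against 11 in 4T1-CM, and with CH223191 20 against 4. Its level is uncertain because 302 of its 584 exon bases (51.7%) are also exon of Gm42674, annotated on the same strand, and 287 of its 303 coding bases are shared. Gm42674 had 0 reads in every library. Whether reads that fit both genes were counted is not given in the sources used here, so the low counts cannot be read as low expression. The log2 ratio of 4T1-CM to normal medium was -0.47 with DMSO (-1.77 to 0.76) and -2.22 with CH223191 (-4.36 to -0.77). The first interval spans 0.

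With DMSO, 2 of the 7 S100 genes, S100a8 and S100a11, were at least 2-fold higher in 4T1-CM, where 9.56% of all genes kept were, among those with more than 3 reads in both libraries. None of the 7 was at least 2-fold lower, against 5.38% of all genes. With CH223191, 1 of the 7, S100a8, was at least 2-fold higher (9.4% of all genes), and 3, S100a1, S100a4 and S100a13, were at least 2-fold lower (6.99% of all genes). The median log2 ratio of the 7 was -0.22 with DMSO and -0.71 with CH223191, against 0.008 and 0.016 over all genes kept. S100a4 counts among the 3 on 20 and 4 reads. With a length trend (lowess over all genes kept) subtracted from the ratios, S100a1 (-0.94) and S100a13 (-0.98) were no longer 2-fold lower. The ratios of S100a10 and S100a11 with CH223191 were then only -0.068 and -0.102.

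**Figure D2:**
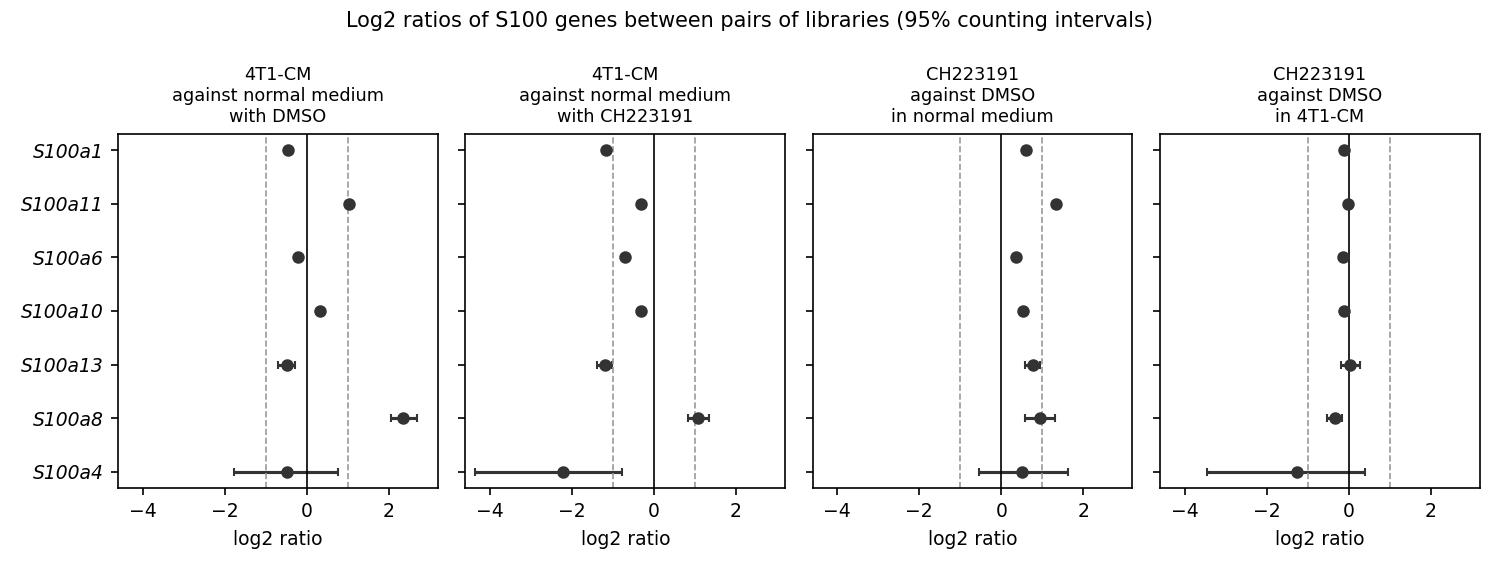
Log2 ratios of 7 S100 genes in 4 comparisons of a pair of libraries each, with 95% counting intervals as bars; dashed lines mark 2-fold. S100a8 lies beyond 2-fold to the right in both comparisons of 4T1-CM with normal medium (2.36 and 1.08), and the ratios for CH223191 in normal medium are all to the right of 0, from 0.35 to 1.33.

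An additive fit over the 4 libraries, with medium and inhibitor as terms (edgeR's quasi-likelihood test, Benjamini-Hochberg over 13715 genes), was used as an alternative. It leaves 1 residual degree of freedom and assumes that the inhibitor acts alike in both media. With 1 library per condition, spread between cultures and a departure from that assumption cannot be told apart in its p-values. The response to 4T1-CM did differ with the inhibitor beyond counting error for S100a11 (-1.35) and S100a8 (-1.28), among others, as given below. The 4T1-CM term called 32.6% of all genes, and 4 of the 7 S100 genes. S100a8 was higher by 1.69 on the log2 scale (adjusted p 0.000574). S100a1 (-0.81, adjusted p 0.00396), S100a13 (-0.85, 0.00438) and S100a6 (-0.47, 0.032) were lower. S100a11 (0.35, adjusted p 0.306), S100a10 (0.001, 0.997) and S100a4 (-1.28, 0.158) did not pass. The CH223191 term called 0.0802% of all genes, 11 in number, and 0 of the 7 S100 genes. At an unadjusted p under 0.05 it had 2, S100a11 (0.65) and S100a13 (0.42), each with an adjusted p of 0.762.

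CH223191 went with higher S100 counts in normal medium. All 7 genes had a log2 ratio of CH223191 to DMSO above 0 there, where 51.6% of all genes kept did, and their median was 0.59 against 0.003. S100a11 had the largest ratio, 1.33 (1.26 to 1.41), or 2.52-fold. It was the 1 of the 7 that was at least 2-fold higher, against 3.22% of all genes. S100a8 followed with 0.94 (0.59 to 1.31) and S100a13 with 0.76 (0.59 to 0.94). S100a1 had 0.59 (0.54 to 0.64), S100a10 0.53 (0.46 to 0.61) and S100a6 0.35 (0.29 to 0.41). For S100a4 the ratio was 0.50 and its interval spanned 0 (-0.54 to 1.62). None of the 7 was at least 2-fold lower, against 1.81% of all genes.

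In 4T1-CM the ratios of CH223191 to DMSO were small. S100a8 had -0.34 (-0.52 to -0.15), S100a6 -0.14 (-0.20 to -0.07), S100a1 -0.11 (-0.17 to -0.04) and S100a10 -0.10 (-0.18 to -0.03). The intervals of S100a11 (-0.02, -0.08 to 0.04) and S100a13 (0.05, -0.18 to 0.27) spanned 0. None of the 7 was at least 2-fold higher, against 2.04% of all genes. S100a4 was the 1 of the 7 at least 2-fold lower (1.73% of all genes), on 11 and 4 reads, with a ratio of -1.25 and an interval from -3.46 to 0.40. The median of the 7 was -0.11, against 0.004 over all genes kept.

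The ratio in normal medium moved with gene length over all genes. Over the 11765 genes whose count was 10 or more in every library, Spearman's rho between the log2 ratio of CH223191 to DMSO and gene length came to -0.255 for normal medium and to 0.021 for 4T1-CM. For the ratio of 4T1-CM to normal medium it was 0.132 with DMSO and 0.267 with CH223191, where genes under 1000 bases had medians of -0.135 and -0.339. These are descriptions across genes, which share the libraries. The 648 genes under 1000 bases had a median of 0.27 in normal medium, and 5 of the 7 S100 genes (S100a1, S100a4, S100a8, S100a11 and S100a13, with 511 to 715 bases) are that short. With the trend subtracted, the ratios in normal medium were 1.08 for S100a11, 0.71 for S100a8, 0.53 for S100a13, 0.36 for S100a1, 0.35 for S100a10, 0.26 for S100a4 and 0.18 for S100a6. All 7 were still above 0, and S100a11 was still past 2-fold.

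**Figure D3:**
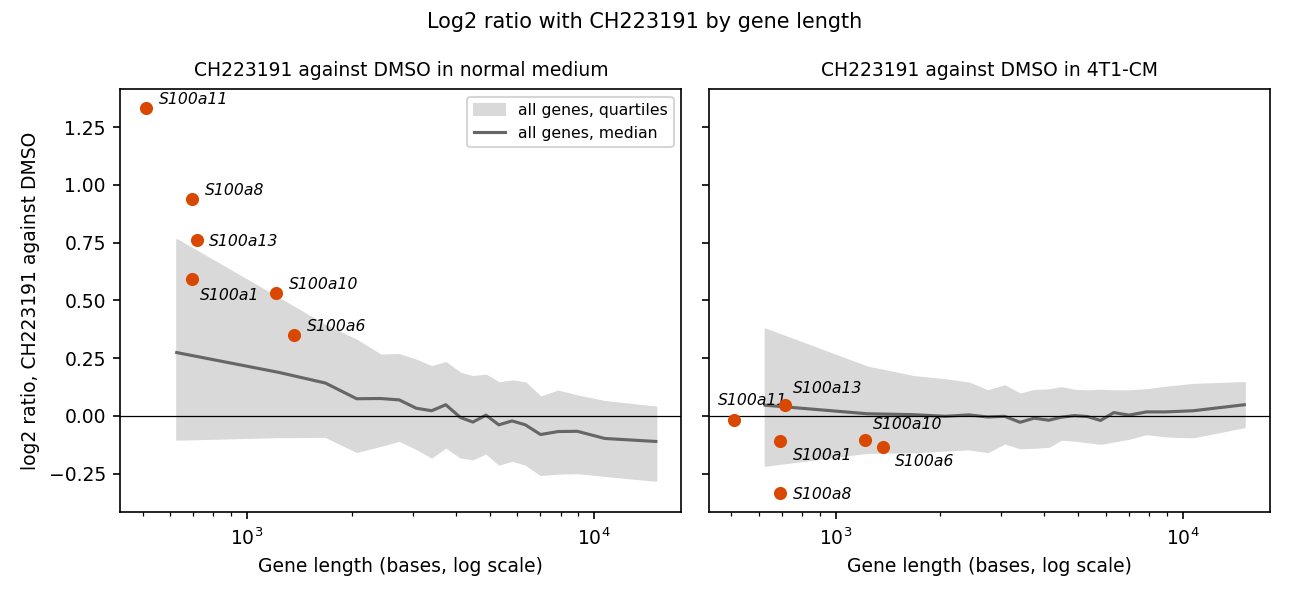
Log2 ratio of CH223191 to DMSO against gene length (bases, log axis) in normal medium (left) and in 4T1-CM (right); the line is the median and the band the quartiles of all genes whose count was 10 or more in every library, in 20 bins of length, and points are 6 S100 genes. In normal medium the line falls with length (rho -0.255) and the 6 points lie above it, those of S100a1 and S100a6 still inside the band. In 4T1-CM the line is nearly flat (rho 0.021).

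The log2 ratio of 4T1-CM to normal medium was lower with CH223191 than with DMSO for each of the 7 S100 genes, as it was for 50.5% of all genes kept and for 57.1% of the 1059 genes kept under 1000 bases. The median difference was -0.005 over all genes and -0.147 over those short genes. These responses share no library. Among the 6 S100 genes whose counting interval excluded 0, S100a11 differed most, by -1.35 on the log2 scale (counting interval -1.44 to -1.26), and S100a8 by -1.28 (-1.67 to -0.88). S100a13 (-0.72, -0.998 to -0.44), S100a1 (-0.70, -0.78 to -0.62), S100a10 (-0.63, -0.74 to -0.53) and S100a6 (-0.49, -0.57 to -0.40) followed. The interval of S100a4 spanned 0 (-1.75, -3.67 to 0.17). The same numbers are the differences of the CH223191 ratio between the media, so they hold no more than the 4 libraries do, and a difference beyond counting error is not a difference beyond the spread between cultures, which is unknown.

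Summed over the 9 genes, S100 transcripts stood with DMSO at 3472 TPM in normal medium against 3555 TPM in 4T1-CM, and with CH223191 at 5357 TPM against 3319 TPM. The library of normal medium with CH223191 was the high one, and the other 3 were close together. Their make-up still differed by medium. The sums and shares take S100a4 and S100a11 as counted, and reads that fit other genes as well may be missing from both. S100a1 supplied 42.6% and 37.6% of the sum in normal medium and 26.8% and 26.2% in 4T1-CM. S100a11 supplied 23.6% and 34.9% in normal medium and 41.7% and 43.5% in 4T1-CM. S100a8 supplied 0.809% and 0.912% in normal medium and 3.62% and 3.02% in 4T1-CM.

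**Figure D4:**
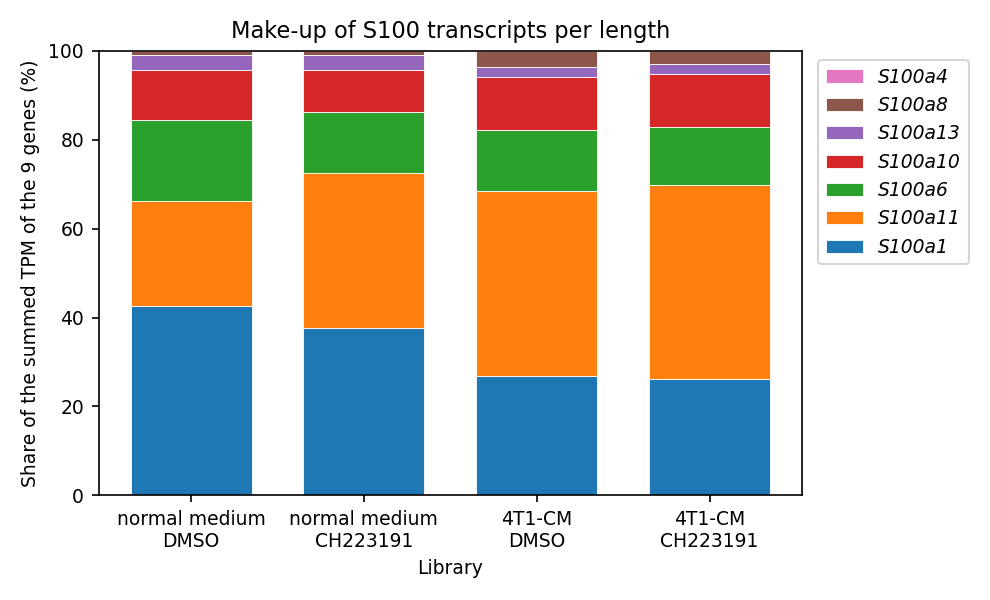
Share of each gene in the summed TPM of the 9 S100 genes, 1 bar per library; S100a9 had 0 reads and S100a16 at most 0.0189%, so neither is drawn. Reads of S100a4 and S100a11 that fit other genes as well may be missing from the counts. S100a1 is the largest part in both libraries of normal medium (42.6% and 37.6%) and S100a11 in both of 4T1-CM (41.7% and 43.5%).

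Among the receptors of released S100 proteins, 7 of 7 genes on a fixed list passed the filter. Cd14, the co-receptor of Tlr4 for lipopolysaccharide, had 4379 and 3808 reads in normal medium (DMSO, then CH223191) and 55189 and 55483 in 4T1-CM, with log2 ratios of 3.52 with DMSO and 3.83 with CH223191. It was the 1 receptor at least 2-fold higher in 4T1-CM in either comparison, of 6 with a fold with DMSO and 7 with CH223191 (9.56% and 9.4% of all genes). Tlr4 itself was level, with 1215 and 1138 reads in normal medium and 1226 and 1211 in 4T1-CM. Ly96, which completes the Tlr4 complex, had 139 and 179 reads in normal medium and 269 and 213 in 4T1-CM. Bsg, a receptor of S100a9, had 4881 and 5896, then 10046 and 9150. Neither reached 2-fold. Alcam, an adhesion molecule, was at least 2-fold lower in 4T1-CM in both comparisons (-1.61 and -1.37), and Cd36, a scavenger receptor, in that with CH223191 (-1.07, and -0.995 with DMSO). Over all genes, 5.38% were at least 2-fold lower in 4T1-CM with DMSO and 6.99% with CH223191. Ager was the 1 receptor past 2-fold for CH223191 in 4T1-CM, being higher on 4 and 13 reads. There, 2.04% of all genes were higher and 1.73% lower. In normal medium it had 3 and 8 reads and is given no fold, since 1 library held only 3. None of the other 6 was past 2-fold for CH223191 in normal medium, where 3.22% of all genes were higher and 1.81% lower.

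Among the partners inside the cell, 10 of 10 genes passed the filter, and Anxa1 was the 1 past 2-fold in 4T1-CM in each comparison, being lower (5.38% of all genes with DMSO and 6.99% with CH223191). Anxa1, the annexin that S100a11 binds, had 33712 and 30689 reads in normal medium (DMSO, then CH223191), 12597 and 10810 in 4T1-CM, and log2 ratios of -1.55 with DMSO and -1.54 with CH223191. It was thus lower in 4T1-CM with DMSO, where S100a11 was higher. Anxa2, the partner of S100a10, had 16248 and 21232 reads in normal medium and 13206 and 13151 in 4T1-CM, with ratios of -0.43 and -0.72. S100a10 had 0.32 and -0.32 in the same comparisons, so the pair was in opposite directions with DMSO. For CH223191 in normal medium, Anxa2 was at 0.39 and S100a10 at 0.53, while Anxa1 was at -0.13 and S100a11 at 1.33. Ahnak, a scaffold of the S100a10 and Anxa2 complex, had -0.55 and -0.32 in 4T1-CM. Myh9, the myosin that S100a4 binds, had -0.01 and 0.08, and Cacybp, the partner of S100a6, had 0.27 and 0.20. None of the 10 reached 2-fold for CH223191 in either medium, where 3.22% of all genes were higher and 1.81% lower in normal medium, and 2.04% higher and 1.73% lower in 4T1-CM.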

How the data were processed

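RNA was extracted with TRIzol and libraries were made with the NEBNext Ultra kit, per the labels. The submitters' processing notes name HISAT2 2.0.5 and DESeq2; the study's methods name featureCounts for its alveolar macrophage libraries, and the counter and its use of strand for these 4 are not given in the sources used here. The authors deposited read counts as whole numbers, not normalized, with gene lengths. Of 54532 genes, 13715 had 10 or more reads in 1 library or more and were kept. Counts were scaled with TMM (edgeR 4.0.16, R 4.3.3), and log2 ratios were taken with a prior count of 0.5. Called means at least 2-fold with more than 3 reads in both libraries. With 1 library per condition, no difference had a replicate check. TPM used the deposited lengths. Coordinates of the 9 genes were identical to GENCODE M21 (GRCm38), whose transcripts gave overlaps, copies and EF-hand loops. Promoters came from RefSeq. The text names the 9 members, fixed lists (family, receptors, partners, neighbours, cell markers) and the 3 genes nearest to the member with the largest rise and fall in 4T1-CM, by the smaller of both ratios among members with at least 10 reads in every library. 1 monocyte marker was left out of its list and is not reported here. The members and lists were chosen with earlier results of these data known. The fit and the intervals were tested on simulated data. The simulation of the fit held an effect of the medium alone and a fixed spread between libraries. It cannot say how reliable the adjusted p-values are here, where the spread between cultures is unknown. Alternatives were DESeq2 1.42.0 size factors, total counts, other filters, protein-coding genes alone, a prior count of 5, a 1.5-fold call, the additive fit and, chosen after seeing the data, subtraction of a length trend.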

Additional observations from a re-analysis of the deposited data

Results flagged for a closer look

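Some S100 genes differed in opposite directions under the same contrast, beyond counting error on both sides, with 1 library per condition, so the difference was not tested. Between 4T1-CM and normal medium, the log2 ratio of S100a10 was 0.319 with DMSO and -0.316 with CH223191, and that of S100a11 was 1.026 with DMSO and -0.324 with CH223191. With the length trend subtracted, the ratios with CH223191 were only -0.068 for S100a10 and -0.102 for S100a11, and those with DMSO 0.459 and 1.107. The counting intervals are for ratios without that subtraction. Between CH223191 and DMSO, S100a1 had a ratio of 0.593 in normal medium but of -0.108 in 4T1-CM, S100a6 of 0.349 and -0.137, S100a8 of 0.940 and -0.335, and S100a10 of 0.532 and -0.103. Each pair uses all 4 libraries. In CPM, normal medium with CH223191 was the highest library for S100a1, S100a6, S100a10 and S100a11, and normal medium with DMSO was the lowest for S100a8, S100a10 and S100a11.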

How the results depend on the processing

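No direction of the 7 S100 genes changed with DESeq2 size factors, total counts, no filter, a filter of 10 reads in every library, protein-coding genes alone, a prior count of 5 or the length trend subtracted, the last chosen after seeing the data, except that S100a4 did not pass the filter on every library, which left 6 genes. The largest shifts of a log2 ratio were 0.012, 0.058, 0.025, 0.026, 0.010, 0.713 and 0.252 in that order. With total counts, 1 S100 gene in place of 2 was called higher in 4T1-CM with DMSO, S100a11 being just under 2-fold. With at least 10 reads in every library, and with a prior count of 5, 0 in place of 1 was called lower for CH223191 in 4T1-CM, as S100a4 was no longer called. The same filter left 2 in place of 3 called lower in 4T1-CM with CH223191. With a call at 1.5-fold, 4 in place of 1 were called higher for CH223191 in normal medium and 4 in place of 3 lower in 4T1-CM with CH223191. With the length trend subtracted, 1 in place of 3 was called lower in 4T1-CM with CH223191. The additive fit gives 1 value to both comparisons of a pair by construction, and so changed the sign of 8 of 28 ratios. No paired analysis was possible because each condition has 1 library and the labels give no replicate numbers. S100a4, S100a9 and S100a16 had at most 20 reads in a library, and the part of the exon bases that S100a4 shares with Gm42674 was not tested.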
